A study of Mus musculus with 36 samples.

Results

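The p53 family and the kinases and cofactors that act on it were followed by 10 genes: the transcription factors Trp53, Trp63 and Trp73, the apical DNA damage kinases Atm, Atr and Prkdc, the checkpoint kinases Chek1 and Chek2, the deubiquitinase Usp7 and the damage-site adaptor Trp53bp1. They were chosen by name, and each was found once among the 46603 genes of the 2 count tables. In GRCm38 coordinates of the whole gene, Trp53 lies at chr11:69580359-69591873 (plus strand), Trp63 at chr16:25683763-25892102 (plus), Trp73 at chr4:154056253-154140208 (minus), Atm at chr9:53439149-53536740 (minus), Atr at chr9:95857597-95951644 (plus), Prkdc at chr16:15637866-15842235 (plus), Chek1 at chr9:36708482-36727065 (minus), Chek2 at chr5:110839979-110874145 (plus), Usp7 at chr16:8689595-8792308 (minus) and Trp53bp1 at chr2:121193281-121271407 (minus). All 10 were tested at E10.5, and 9 at E12.5, where Trp63 had too few counts to be tested.

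p53, the product of Trp53, is a transcription factor that is held low in undamaged cells because MDM2 marks it for degradation. DNA breaks activate ATM and DNA-PK (the catalytic subunit is encoded by Prkdc), stalled replication forks activate ATR, and these kinases act on p53 directly and through CHK2 and CHK1, so that p53 is controlled largely at the level of the protein. In the embryonic forebrain p53 activity is known to remove damaged progenitors by apoptosis, p73 marks Cajal-Retzius neurons and p63 marks surface epithelia.

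RNA sequencing was performed on embryonic mouse forebrain (C57Bl/6J) that carried a series of alleles of Chd8, which encodes a chromatin remodelling factor, to compare the responses to partial and complete loss. At E12.5 the cortices of Chd8+/+, Chd8+/-, Chd8neo/neo and Chd8neo/- embryos were used, with 3 libraries of 1 embryo each per genotype. The neo allele carries a neomycin resistance cassette that diverts splicing and lowers expression, and the minus allele is a null. At E10.5 the tissue was labelled cortex and was dissected as telencephalic vesicles, with 3 libraries of 2 pooled embryos for each of 2 groups. The cKO embryos were sox1-Cre; Chd8f/f, in which Cre removes exon 3 in the neuroepithelium, and the Ctrl group is labelled as a combination of Chd8f/f and Chd8 f/+ embryos. All 3 mutant genotypes at E12.5 were compared with the same Chd8+/+ libraries, so that these comparisons are not independent of each other. The share of Y-linked counts was low in some libraries of the Chd8+/+, Chd8+/- and Chd8neo/neo groups and in none of the Chd8neo/- group, so that embryos of both sexes were unevenly spread.

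Between 38774591 and 68488879 counts fell on genes per library. Chd8 itself was lower in each mutant group than in its own control. It averaged 237 ± 2.41 normalised counts (CPM, scaled to library size by TMM, mean ± SD, n = 3) in Chd8+/+, 167 ± 3.04 in Chd8+/-, 209 ± 5.64 in Chd8neo/neo and 149 ± 8.38 in Chd8neo/- cortices, and 171 ± 12.005 in Ctrl and 121 ± 4.78 in cKO vesicles. The Chd8neo/neo level lay above that of Chd8+/- (log2 fold change 0.33, adjusted p = 0.00897, edgeR), so that these counts do not give the order of an allelic series. Reads of the whole gene were counted, and transcripts that lack exon 3 or end in the cassette remain in these values. All 9 dorsal telencephalon markers were detected in every group, and their summed level lay between 952 and 1123 CPM in Ctrl vesicles and between 1440 and 1591 CPM in Chd8+/+ cortices. In whole tissue, fewer cells of a type and less RNA per cell cannot be told apart.

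Sequences that bear on the measurements are shown first. The study designed quantitative RT-PCR assays for Trp53, Atm and Atr, which measure 1 short stretch of each mRNA, whereas the counts below sum all exons. Each primer was located in GENCODE M21 transcripts (GRCm38), and a primer that reads with the transcript is called sense.
Atm forward: tctgtccagcaaaatctcaagg
Atm reverse: cccatgtaacaatagcagccaa
Atr forward: gaatgggtgaacaatactgctgg
Atr reverse: tttggtagcatacactggcga
Trp53 forward: ggggaggagccaggccatca
Trp53 reverse: ccgcgccatggccatctaca
The Atm pair lies in exons 12 and 13 of 62 (chr9:53511766-53511787 and chr9:53510215-53510236) and amplifies 158 bases, and the Atr pair lies in exons 42 and 43 of 47 (chr9:95942676-95942698 and chr9:95945113-95945133) and amplifies 107 bases. The Trp53 pair spans exons 5 and 6 of 11 (chr11:69588459-69588640) and amplifies 104 bases. In this pair the primer listed as forward is antisense and crosses the exon junction, and the primer listed as reverse is sense.

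Promoters are shown for the 3 genes that differed between Chd8 genotypes in the tests below (RefSeq starts, GRCm38.p6, 250 bases before to 50 after the start, on the strand of the gene). Capitals mark matches to TTTCCCGC, TTTCGCGC, TTTGGCGC or TTTGGCGG on either strand. These are 8-base forms of the motif of E2F factors, which regulate genes of DNA replication. This search was chosen after the sequences had been seen.
Chek1, chr9:36726609-36726908, minus strand: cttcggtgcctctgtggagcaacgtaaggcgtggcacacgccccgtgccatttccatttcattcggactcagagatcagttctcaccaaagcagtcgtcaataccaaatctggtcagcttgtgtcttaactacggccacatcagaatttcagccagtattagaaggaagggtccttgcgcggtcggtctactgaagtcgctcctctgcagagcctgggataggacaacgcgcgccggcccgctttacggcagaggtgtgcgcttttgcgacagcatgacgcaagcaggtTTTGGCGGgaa
Chek2, chr5:110839733-110840032, plus strand: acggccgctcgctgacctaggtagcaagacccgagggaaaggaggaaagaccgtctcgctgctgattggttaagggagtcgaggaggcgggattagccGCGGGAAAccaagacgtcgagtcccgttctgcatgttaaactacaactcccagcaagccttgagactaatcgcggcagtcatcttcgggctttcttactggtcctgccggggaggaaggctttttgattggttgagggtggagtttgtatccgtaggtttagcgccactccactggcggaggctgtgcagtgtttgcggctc
Trp53bp1, chr2:121271358-121271657, minus strand: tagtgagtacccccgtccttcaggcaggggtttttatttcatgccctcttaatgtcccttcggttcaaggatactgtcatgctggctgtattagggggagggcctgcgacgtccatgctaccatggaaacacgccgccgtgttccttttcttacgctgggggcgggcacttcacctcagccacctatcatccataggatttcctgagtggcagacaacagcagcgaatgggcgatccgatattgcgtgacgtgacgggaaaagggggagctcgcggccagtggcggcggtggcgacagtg
Chek1 and Chek2 held 1 match each and Trp53bp1 held none. Of the 9 promoters in the table for 8 of the 10 genes, 2 held a match, against 2.37% of all 32851 promoters of this length. Since the search was chosen after the sequences had been seen, these shares are no test of enrichment. A match is a description of the letters only.

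The genes span a wide range of levels. Per length (RPKM, which also divides by exon length in kilobases), the order in Chd8+/+ cortices ran from Trp53 (36.8 ± 2.87, n = 3) and Usp7 (36.5 ± 1.58), which overlapped, through Trp53bp1 (25.5 ± 0.508), Chek1 (14.5 ± 0.389), Atm (8.68 ± 0.199), Chek2 (8.24 ± 0.273), Trp73 (6.51 ± 0.621), Prkdc (4.13 ± 0.127) and Atr (2.76 ± 0.124) to Trp63 (0.00912 ± 0.0116). In Ctrl vesicles Trp53 stood at 50.6 ± 4.87 RPKM, Chek1 at 23.4 ± 0.411 and Chek2 at 15.1 ± 0.824, and Trp73 at 0.823 ± 0.579. Trp53 ranked first in both of these groups. The exon length of each gene includes every annotated exon, 23492 bases for Atr, so that RPKM values are low estimates. The degree can differ between genes, which limits the order between them.

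**Figure D1:**
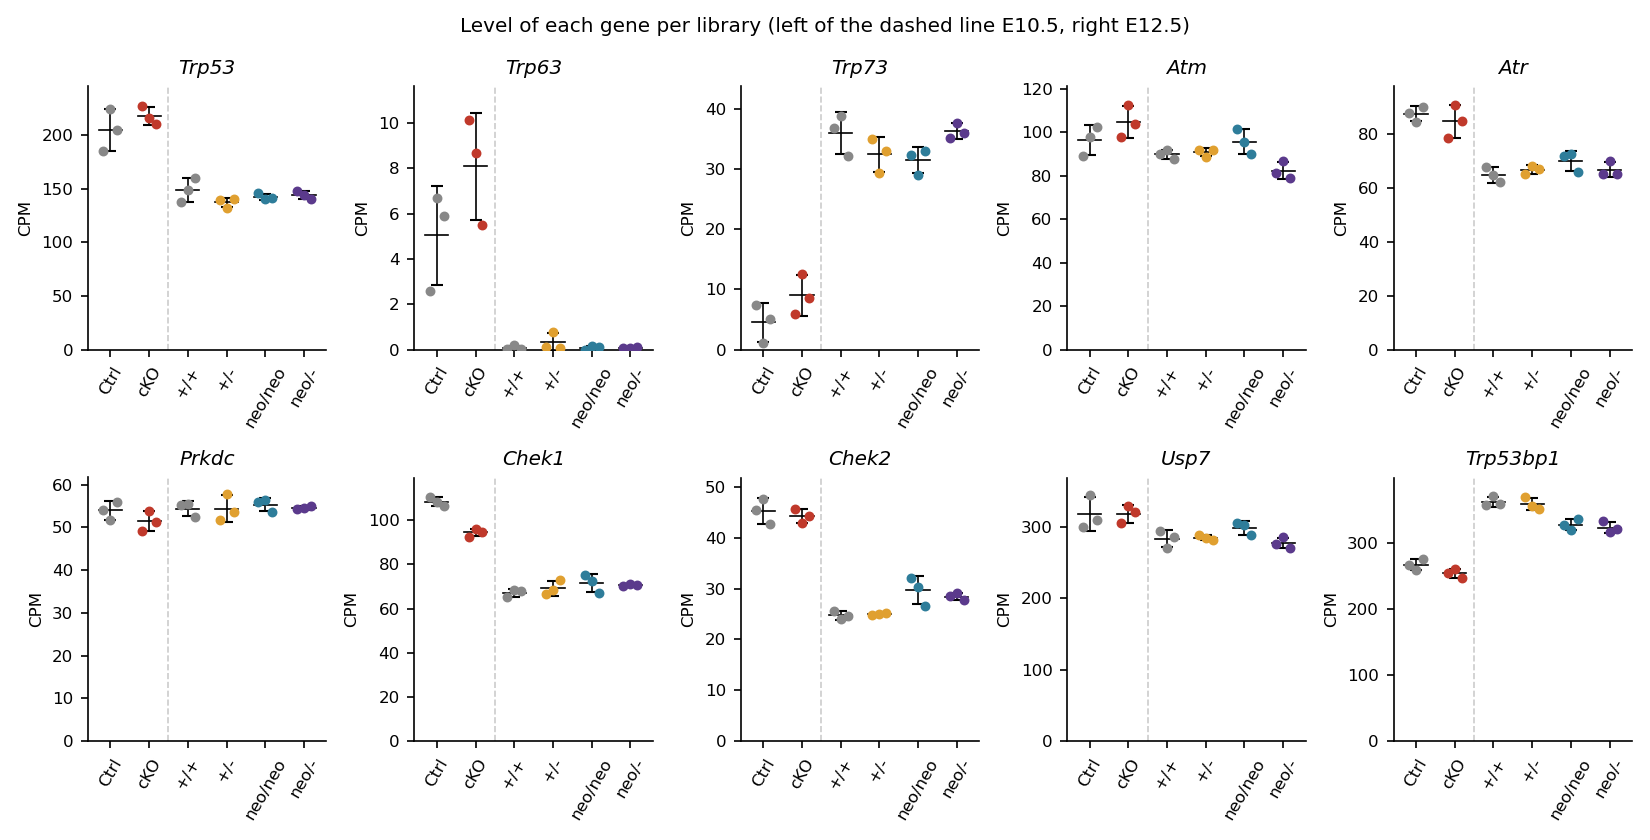
Level of each of the 10 genes in CPM (vertical axes from 0) in the 18 libraries, with points for libraries and bars for the mean ± SD of 3 libraries, and E10.5 to the left of the dashed line. Chek1 is lower in all 3 cKO libraries than in all 3 Ctrl libraries, Chek2 is higher and Trp53bp1 lower in the Chd8neo/neo and Chd8neo/- libraries than in the Chd8+/+ libraries, and Trp53 overlaps between all genotypes of a stage except Chd8neo/neo and Chd8+/-.

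Between none and 2 of the 10 genes were called in each comparison of a mutant group with its control. With edgeR's quasi-likelihood test and Benjamini-Hochberg adjustment over all genes tested (called at an adjusted p under 0.05), 1 of 10 was called in cKO against Ctrl vesicles, where 11.4% of all genes were called. At E12.5, 2 of 9 were called in Chd8neo/neo against Chd8+/+ cortices (8.16% of all genes, 3.71% higher and 4.45% lower) and 2 of 9 in Chd8neo/- against Chd8+/+ (11.5%, 5.48% higher and 5.99% lower), with 1 higher and 1 lower in each. None was called in Chd8+/- against Chd8+/+ (0.0213% of all genes), where 1 of 9 had an unadjusted p under 0.05 and DESeq2 called none. The median log2 fold change of the members tested was -0.01 in cKO, 0.07 in Chd8neo/neo and 0.01 in Chd8neo/-, beside -0.0019, 0.0053 and 0.0011 over all genes. The called genes were Chek1 at E10.5, and Chek2 and Trp53bp1 at E12.5.

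**Figure D2:**
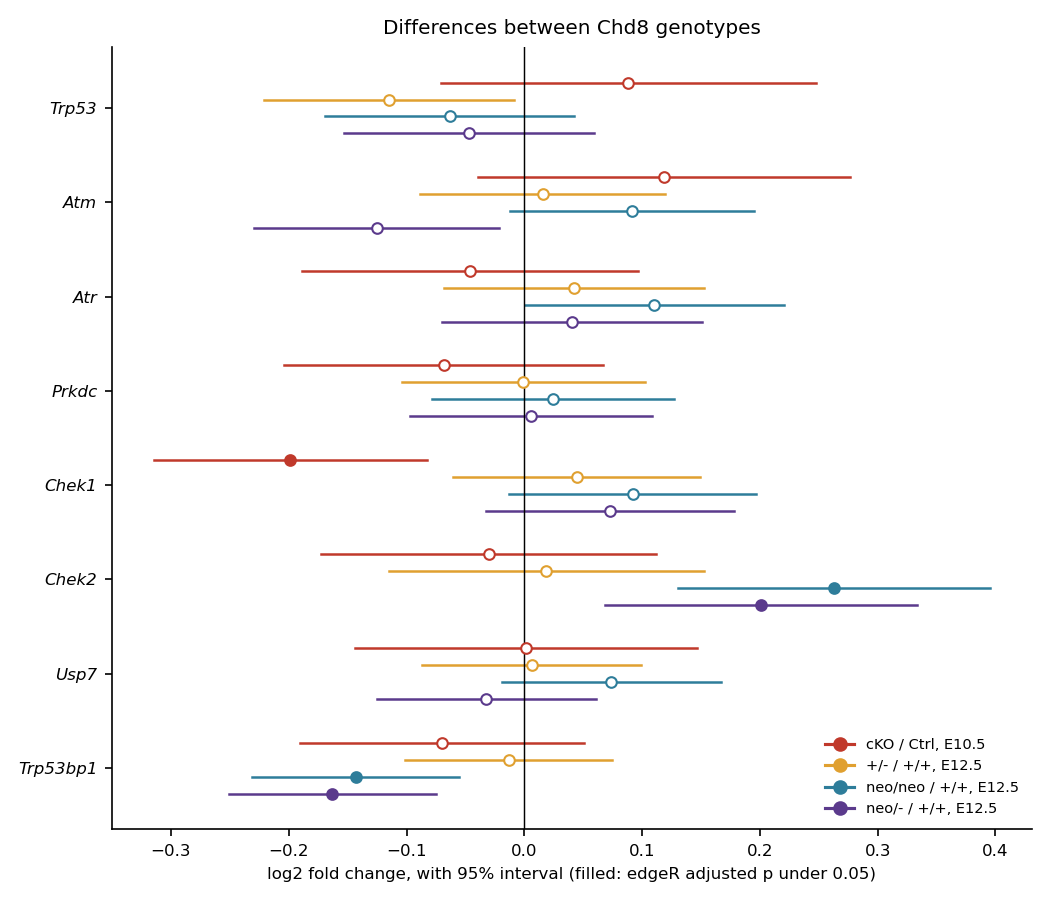
Log2 fold changes between Chd8 genotypes (horizontal axis) with 95% intervals for the 8 genes other than Trp63 and Trp73, with filled points for an edgeR adjusted p under 0.05. Among the 4 comparisons drawn, Chek1 is called in cKO against Ctrl, and Chek2 and Trp53bp1 are called in Chd8neo/neo and Chd8neo/- against Chd8+/+.

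Trp53 mRNA did not differ detectably between cKO and Ctrl vesicles. It measured 185, 224 and 205 CPM in the 3 Ctrl libraries and 227, 216 and 210.3 CPM in the 3 cKO libraries. All cKO libraries lay inside or just above the range of the Ctrl libraries, and the groups overlapped. The log2 fold change was 0.09 with a 95% interval from -0.07 to 0.25 (adjusted p = 0.473, edgeR), which holds differences from 0.952-fold to 1.19-fold. At E12.5 the 3 libraries measured 137, 149 and 160.4 CPM in Chd8+/+, 139.7, 132 and 140.1 in Chd8+/-, 146, 140.4 and 141 in Chd8neo/neo and 148, 144 and 140.1 in Chd8neo/- cortices. The Chd8+/+ group was the most spread and overlapped with each mutant group. Log2 fold changes were -0.12 in Chd8+/- (adjusted p = 0.757, unadjusted 0.0358), -0.06 in Chd8neo/neo (0.464) and -0.05 in Chd8neo/- (0.603). The Trp53 pseudogene Trp53-ps had no count in any library, and no other gene of the annotation shares exon bases with Trp53.

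Trp63, the family member of stratified and surface epithelia, was low at E10.5 and near 0 at E12.5. It had 135, 337 and 329 counts (2.58, 6.71 and 5.89 CPM) in the Ctrl libraries and 600, 550 and 371 counts (10.1, 8.66 and 5.51 CPM) in the cKO libraries. The groups overlapped, and the log2 fold change of 0.68 had a 95% interval from -0.39 to 1.74 (adjusted p = 0.373, edgeR). Between 0 and 34 counts were found per library at E12.5, and 11 of the 12 libraries had 10 or fewer. The library with 34 counts was Chd8+/- replicate 2, which also had the highest level of the epidermal keratin Krt5, 1.68 CPM, against 0 to 0.210 CPM in the other 11 libraries at E12.5.

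Trp73, the family member of Cajal-Retzius neurons, the early Reln-expressing neurons of the cortical surface, was variable at E10.5 and steady at E12.5. It measured 7.49, 1.13 and 5.05 CPM in Ctrl and 5.87, 12.6 and 8.51 CPM in cKO libraries. Ctrl replicate 2 stood apart from the other libraries, and the groups overlapped. Its log2 fold change was 0.98 with a 95% interval from -0.97 to 2.92 (adjusted p = 0.465, edgeR), and 0.53 without Ctrl replicate 2 (adjusted p = 0.481). At E12.5 it measured 36.9, 38.9 and 32.2 CPM in Chd8+/+, 35.1, 29.3 and 33.0 in Chd8+/-, 32.3, 29.02 and 33.1 in Chd8neo/neo and 35.2, 37.8 and 36.0 in Chd8neo/- libraries. Chd8neo/- libraries lay above all Chd8neo/neo libraries (log2 fold change 0.21, unadjusted p = 0.0183, adjusted p = 0.539), and no comparison of Trp73 was called at E12.5. The table of RefSeq starts gives Trp73 2 promoters, which begin the full-length and the amino-terminally shortened forms, and gene counts do not separate them.

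Markers of the cells that express these 2 genes are given beside them. The summed level of the 10 surface ectoderm genes was 42.9, 87.8 and 67.8 CPM in the Ctrl and 101.8, 80.1 and 62.9 CPM in the cKO libraries, so that the library with the least Trp63 (Ctrl replicate 1) and the one with the most (cKO replicate 1) were also those with the lowest and highest sum. At E12.5 this sum lay between 11.6 and 21.2 CPM. Among its defining markers Krt5 had no count in Ctrl replicate 1, and Krt5, Krt14 and Krt15 stayed at or below 0.489 CPM at E10.5. Of the Cajal-Retzius markers, Reln, Calb2 and Lhx1 measured 10.6, 0.259 and 0.777 CPM in Ctrl replicate 2, against 10.6 and 15.5, 1.91 and 1.22, and 2.64 and 3.54 CPM in the other 2 Ctrl libraries. The list was mixed, since another of its genes, Ebf3, was highest of the Ctrl libraries in Ctrl replicate 2, at 22.6 CPM. All 9 Cajal-Retzius genes were detected, with a mean sum of 134.5 CPM in Ctrl and 135.5 CPM in cKO vesicles. The lowest sum was 115.7 CPM in cKO replicate 1, beside 122 CPM in Ctrl replicate 2. In cKO 2 of 9 were called lower (5.70% of all genes). At E12.5 the sums were 592 to 649 CPM in Chd8+/+, 582 to 644 in Chd8+/-, 509 to 574 in Chd8neo/neo and 543 to 588 in Chd8neo/- libraries. Against Chd8+/+, 1 of 9 was called lower in each hypomorph (4.45% of all genes in Chd8neo/neo and 5.99% in Chd8neo/-). A list of 9 dorsal midline, hem and choroid plexus genes was also set beside Trp73. Its sum was 193 to 217 CPM in Ctrl and 218 to 286 CPM in cKO libraries (1 of 7 tested called higher, 5.75% of all genes). At E12.5 it was 135 to 219 CPM in Chd8+/+, 199 to 212 in Chd8+/-, 152 to 227 in Chd8neo/neo and 228 to 257 in Chd8neo/- libraries. None of these 9 was called between genotypes at E12.5. The part of these cells in the levels of Trp63 and Trp73 was not tested.

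**Figure D3:**
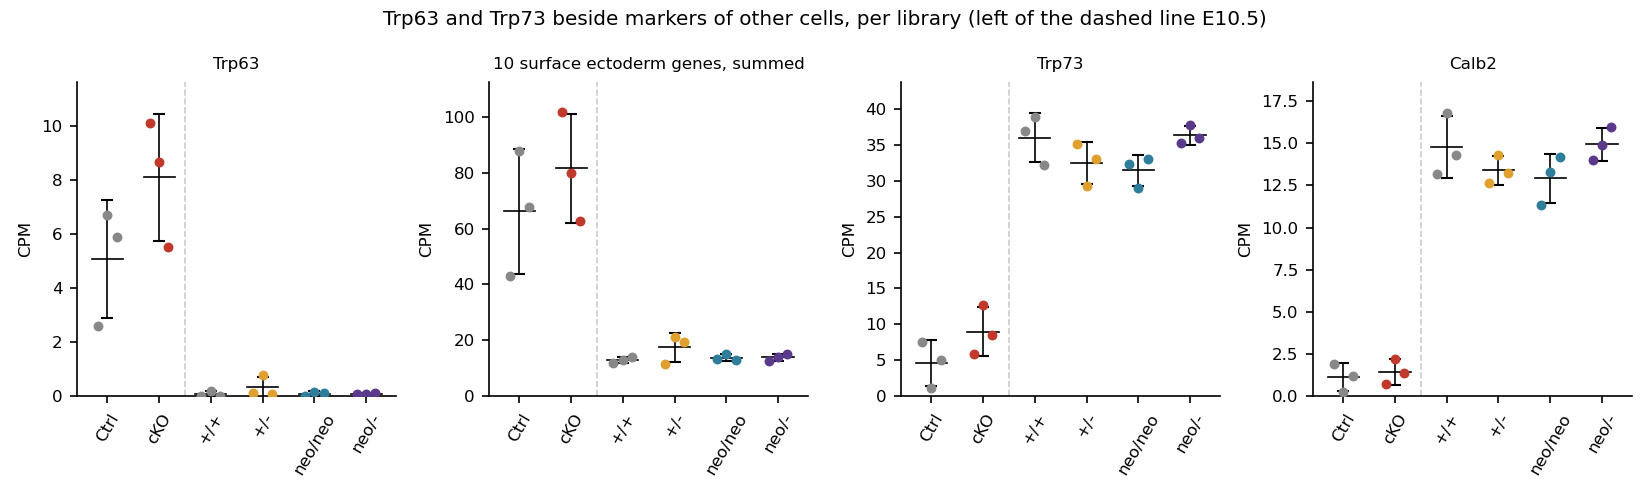
Trp63, the sum of 10 surface ectoderm genes, Trp73 and the Cajal-Retzius marker Calb2 in CPM (vertical axes from 0) in each library, with bars for the mean ± SD of 3 libraries. Ctrl replicate 1 is lowest at E10.5 for Trp63 and for the ectoderm sum (2.58 and 42.9 CPM), and Ctrl replicate 2 is lowest for Trp73 and for Calb2 (1.13 and 0.259 CPM). Calb2 is 1 of 9 Cajal-Retzius genes, and the list was mixed. Ebf3, not drawn, was highest of the Ctrl libraries in Ctrl replicate 2 (22.6 CPM), and the sum of the 9 was lowest in cKO replicate 1 (115.7 CPM).

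Among the apical kinases, no comparison between Chd8 genotypes was called. Atm, which responds to DNA breaks, measured 89.0, 97.6 and 103 CPM in Ctrl and 97.6, 113 and 104 CPM in cKO libraries. The groups overlapped and the log2 fold change was 0.12 with a 95% interval from -0.04 to 0.28 (adjusted p = 0.319, edgeR). At E12.5 Atm was lowest in the Chd8neo/- cortices, at 81.3, 86.6 and 78.8 CPM, against 89.8, 91.7 and 87.6 in Chd8+/+, 91.6, 88.6 and 91.9 in Chd8+/- and 101, 95.3 and 90.1 in Chd8neo/neo libraries. Chd8neo/- libraries did not overlap with Chd8+/+ libraries for 33.3% of all genes, with Chd8+/- for 30.9% and with Chd8neo/neo for 15.2%. For Atm every Chd8neo/- library lay below every library of the other 3 genotypes. Its log2 fold change was -0.13 against Chd8+/+ (adjusted p = 0.112), -0.14 against Chd8+/- (0.104) and -0.22 against Chd8neo/neo (95% interval -0.32 to -0.11, unadjusted p = 0.00049, adjusted p = 0.343, where 0.0159% of all genes were called, 0.0106% higher), so that none passed the threshold.

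Atr, which responds to stalled replication forks, measured 87.9, 84.6 and 90.1 CPM in Ctrl and 78.7, 90.8 and 84.8 CPM in cKO libraries. The cKO libraries spanned the Ctrl libraries, and the log2 fold change was -0.05 with a 95% interval from -0.19 to 0.10 (adjusted p = 0.695, edgeR). At E12.5 it measured 67.9, 64.9 and 62.0 CPM in Chd8+/+, 65.3, 68.3 and 66.9 in Chd8+/-, 71.7, 72.8 and 65.8 in Chd8neo/neo and 65.1, 70.1 and 65.2 in Chd8neo/- libraries. These groups overlapped with Chd8+/+, and the log2 fold changes of 0.04, 0.11 and 0.04 had adjusted p-values of 0.948, 0.197 and 0.678. Short stretches of Atr exons are shared with 3 other annotated genes, the longest 3.09% of its exon bases with 1700065D16Rik on the other strand, which had at most 105 counts in a library.

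Prkdc, whose product joins the Ku proteins at broken ends, is given next. It measured 54.1, 51.7 and 56.1 CPM in Ctrl, 49.2, 54.0 and 51.3 in cKO, 55.2, 55.6 and 52.5 in Chd8+/+, 51.7, 57.8 and 53.7 in Chd8+/-, 56.0, 56.4 and 53.6 in Chd8neo/neo and 54.2, 54.6 and 55.1 in Chd8neo/- libraries. All 6 groups overlapped with their neighbours in the order of means. The log2 fold change was -0.07 in cKO (95% interval -0.20 to 0.07, adjusted p = 0.518) and, at E12.5, -0.0009 in Chd8+/- (95% interval -0.104 to 0.102), 0.02 in Chd8neo/neo (-0.08 to 0.13) and 0.01 in Chd8neo/- (-0.10 to 0.11).

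Chek1, the kinase that ATR activates to hold the cell cycle while forks are stalled, was lower in cKO vesicles. It measured 110.2, 108 and 106 CPM in Ctrl and 92.6, 95.8 and 94.8 CPM in cKO libraries. The groups did not overlap, which was so for 32.2% of all genes in this comparison. This gave a log2 fold change of -0.20 ± 0.05 (SE), a 0.871-fold level with a 95% interval from 0.804 to 0.944 (adjusted p = 0.035, edgeR). The call held in 8 of 14 alternatives. It was lost without Ctrl replicate 2 (adjusted p = 0.0504), Ctrl replicate 3 (0.0864), cKO replicate 1 (0.0807), cKO replicate 2 (0.135) or cKO replicate 3 (0.12), at log2 fold changes between -0.21 and -0.18. Markers of other cells differed between the same groups. The sum of 6 mesenchyme and meninges genes was 657 to 846 CPM in cKO against 538 to 611 CPM in Ctrl libraries (2 of 6 called higher, beside 5.75% of all genes), and that of 5 microglia and macrophage genes was 22.1 to 23.9 against 16.98 to 20.3 CPM (1 of 5 higher). The sum of 6 ventral telencephalon genes was 20.9 to 29.8 CPM in cKO against 28.1 to 54.2 CPM in Ctrl (1 of 6 called lower, beside 5.70% of all genes, with a list median of -0.85 on the log2 scale). The ranges of this ventral sum overlapped. The sum of 9 dorsal midline, hem and choroid plexus genes was 218 to 286 CPM in cKO against 193 to 217 CPM in Ctrl libraries (1 of 7 tested called higher). The part of these cells in the level of Chek1 was not tested. At E12.5 Chek1 measured 65.0, 68.3 and 67.9 CPM in Chd8+/+, 66.3, 68.3 and 72.8 in Chd8+/-, 75.0, 72.4 and 67.1 in Chd8neo/neo and 70.0, 70.9 and 70.7 in Chd8neo/- libraries. The Chd8neo/- libraries lay above those of Chd8+/+ while the other 2 genotypes overlapped with it, and the log2 fold changes of 0.04, 0.09 and 0.07 had adjusted p-values of 0.947, 0.262 and 0.381.

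The difference between the effects at the 2 stages was tested in a fit of all 18 libraries. The log2 effect of cKO on Chek1 was lower than that of Chd8neo/- by -0.27 ± 0.07 (SE, adjusted p = 0.0178, edgeR, with 1 of 10 members, called lower, and 6.79% of all genes called, 3.9% higher and 2.89% lower) and lower than that of Chd8neo/neo by -0.29 ± 0.07 (adjusted p = 0.0111, with 2 of 10 members, called lower, and 6.80% of all genes called, 3.64% higher and 3.16% lower). These calls held in 24 and 25 of 26 alternatives, including every fit that left out 1 library. For Atm the effect in cKO was higher than in Chd8neo/- by 0.24 ± 0.08 (adjusted p = 0.0851), and was called without cKO replicate 1 (0.0381). Stage, allele, dissection, pooling of embryos and sequencing runs changed together in this comparison and cannot be told apart.

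Chek2, the kinase that ATM activates at breaks, was higher in both hypomorphs at E12.5. It measured 25.6, 24.02 and 24.5 CPM in Chd8+/+, 24.9, 25.004 and 25.3 in Chd8+/-, 32.2, 30.3 and 26.6 in Chd8neo/neo and 28.5, 29.1 and 27.7 in Chd8neo/- libraries. Every library of both hypomorphs lay above every Chd8+/+ and Chd8+/- library. Against Chd8+/+ such a lack of overlap was found for 2 of 9 members and 26% of all genes in Chd8neo/neo, and for 4 of 9 members and 33.3% of all genes in Chd8neo/-. The log2 fold change against Chd8+/+ was 0.26 ± 0.06 (SE) in Chd8neo/neo (fold 1.2, adjusted p = 0.021, edgeR) and 0.20 ± 0.06 in Chd8neo/- (1.15-fold, adjusted p = 0.0496), and that of Chd8+/- was 0.02 with a 95% interval from -0.12 to 0.15 (adjusted p = 0.99).

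The Chek2 call in Chd8neo/neo held in 15 of 21 alternatives. It was lost without Chd8neo/neo replicate 1 (adjusted p = 0.095) or 2 (0.0837) and without Chd8+/+ replicate 2 (0.0732) or 3 (0.0568). The call in Chd8neo/- held in 5 of 21 alternatives and lay at the threshold. It was lost without any of the Chd8neo/- or Chd8+/+ replicates (adjusted p from 0.0675 to 0.161), without any Chd8+/- replicate (0.0542 to 0.0689) and without Chd8neo/neo replicate 2 (0.0609). Against Chd8+/- the log2 fold change was 0.24 in Chd8neo/neo (adjusted p = 0.0391, with 1 of 9 members called, higher, and 5.28% of all genes, 2.0% higher and 3.28% lower, while 3 of 9 members and 25.5% of all genes did not overlap). In this comparison the replicate numbers were taken to pair the libraries, on low correlations (0.109 to 0.199) and with no source named. With the replicate number as a block over all E12.5 libraries, the adjusted p was 0.0524 (edgeR) and no member was called. The call was also lost without any Chd8+/- replicate (0.0713 to 0.116) or any Chd8neo/- replicate (0.054 to 0.0616). The same was so without Chd8neo/neo replicate 1 (0.162) or 2 (0.123) or Chd8+/+ replicate 3 (0.055). In Chd8neo/- against Chd8+/- it was 0.18 (adjusted p = 0.0992), and was called without Chd8neo/neo replicate 3 (0.0406).

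At E10.5 Chek2 did not differ detectably. It measured 45.4, 47.6 and 42.7 CPM in Ctrl and 45.6, 42.9 and 44.3 CPM in cKO libraries. The cKO libraries lay within the range of the Ctrl libraries, with a log2 fold change of -0.03 and a 95% interval from -0.17 to 0.11 (adjusted p = 0.806, edgeR). Its log2 effect in cKO was lower than in Chd8neo/neo by -0.30 ± 0.09 (SE, adjusted p = 0.0485) and lower than in Chd8neo/- by -0.23 ± 0.09 (adjusted p = 0.12). The first of these calls held in 7 of 26 alternatives. It was lost when any 1 of 14 libraries was left out, with adjusted p-values from 0.058 (without Chd8+/- replicate 2) to 0.141 (without Chd8neo/neo replicate 1), and was kept only without Chd8+/+ replicate 1, Chd8neo/neo replicate 3, Ctrl replicate 3 or cKO replicate 1.

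Markers of proliferation and of early neurons are given beside Chek2. Of 14 proliferation markers, 5 were called higher and none lower in Chd8neo/neo (3.71% of all genes higher), with Mcm6 and Mcm2, subunits of the replicative helicase, and the cyclin Ccne1 at log2 fold changes of 0.22, 0.21 and 0.28. In Chd8neo/- 1 of 14 was called higher, Mcm6 at 0.18 (5.48% of all genes higher), with a list median of 0.14. Of 6 early neuron markers, 2 were called lower in each hypomorph (4.45% of all genes lower in Chd8neo/neo and 5.99% in Chd8neo/-), and their summed level ranged from 2859 to 3313 CPM for Chd8neo/neo and from 3129 to 3526 CPM for Chd8neo/-, against 3468 to 4073 CPM in Chd8+/+. In cKO vesicles none of the 14 proliferation markers was called. The part of these cell populations in the level of Chek2 was not tested.

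Usp7, the deubiquitinase that stabilises both p53 and MDM2, was not called in any comparison of Chd8 genotypes by edgeR. It measured 299, 344 and 309.7 CPM in Ctrl and 304, 329 and 319.8 CPM in cKO libraries. These overlapped, with a log2 fold change of 0.00 and a 95% interval from -0.14 to 0.15 (adjusted p = 0.995, edgeR). At E12.5 it measured 294, 270.1 and 285 CPM in Chd8+/+, 288, 284.2 and 281.3 in Chd8+/-, 305, 301.7 and 288 in Chd8neo/neo and 275.1, 285 and 270.4 in Chd8neo/- libraries. All mutant groups overlapped with Chd8+/+, and the Chd8neo/- libraries lay below those of Chd8neo/neo (log2 fold change -0.11, unadjusted p = 0.028, adjusted p = 0.564).

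Trp53bp1, which encodes the break-site adaptor 53BP1, was lower in both hypomorphs. It measured 357, 369.8 and 358 CPM in Chd8+/+, 368, 355 and 351 in Chd8+/-, 327, 319 and 336 in Chd8neo/neo and 333, 316 and 319.9 in Chd8neo/- libraries. Every hypomorph library lay below every Chd8+/+ and Chd8+/- library. The log2 fold change against Chd8+/+ was -0.14 ± 0.04 (SE) in Chd8neo/neo (0.905-fold, adjusted p = 0.0467, edgeR), -0.16 ± 0.04 in Chd8neo/- (0.893-fold, adjusted p = 0.0206) and -0.01 in Chd8+/- (95% interval -0.10 to 0.07, adjusted p = 0.99). In Chd8neo/- against Chd8+/- it was -0.15 (adjusted p = 0.0484, with 1 of 9 members called, lower, and 5.43% of all genes, 2.18% higher and 3.25% lower, while 4 of 9 members and 30.9% of all genes did not overlap), and in Chd8neo/neo against Chd8+/- it was -0.13 (adjusted p = 0.0779). Between the hypomorphs none of the 9 members was called, where 3 of 9 had an unadjusted p under 0.05, 3 of 9 did not overlap (15.2% of all genes) and DESeq2 called none.

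The call of Trp53bp1 in Chd8neo/- held in 17 of 21 alternatives and was lost without Chd8neo/- replicate 2 (adjusted p = 0.0949) or 3 (0.0793) or Chd8+/+ replicate 2 (0.0812) or 3 (0.0646). In Chd8neo/neo it held in 6 of 21, and was lost without Chd8neo/neo replicate 1 (0.121) or 2 (0.175), Chd8+/+ replicate 2 (0.186) or 3 (0.111), any Chd8neo/- replicate (0.0594 to 0.0645) or Chd8+/- replicate 1 (0.0512) or 3 (0.0602). Against Chd8+/- the call in Chd8neo/- held in 5 of 21 and was lost without any replicate of either group (0.0798 to 0.183), Chd8neo/neo replicate 1 (0.062) or 2 (0.0582) or Chd8+/+ replicate 2 (0.0556) or 3 (0.0725). That in Chd8neo/neo was made without Chd8neo/neo replicate 3 (0.0382). At E10.5 Trp53bp1 measured 266, 259 and 274.99 CPM in Ctrl and 254, 261 and 247 CPM in cKO libraries, which overlapped (log2 fold change -0.07, 95% interval -0.19 to 0.05, adjusted p = 0.448). Of its 14164 exon bases, 2130 overlap with Tubgcp4 on the other strand, and reads that fell in this stretch could not be assigned to 1 gene by counting without strand. Of the early neuron markers above, 2 of 6 were called lower in each hypomorph (4.45% of all genes in Chd8neo/neo and 5.99% in Chd8neo/-). The part of these cells in the level of Trp53bp1 was not tested.

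More of the genes differed between the control groups of the 2 stages than between Chd8 genotypes, as was so over all genes. Chek2, Chek1, Trp53, Atr and Usp7 were called lower in Chd8+/+ cortices at E12.5 than in Ctrl vesicles at E10.5. Trp53bp1 and Trp73 were called higher at E12.5, in a comparison where 69.9% of all genes were called (34.0% higher and 35.9% lower). These members did not overlap between the groups, as was so for 70.8% of all genes. Chek2 had a log2 difference of -0.86 ± 0.06 (E12.5 minus E10.5, SE), Chek1 -0.68 ± 0.05, Trp53 -0.44 ± 0.06, Atr -0.42 ± 0.06 and Usp7 -0.15 ± 0.05, with adjusted p-values from 1.28e-10 to 0.0117 (edgeR). The call of Usp7 was lost without Ctrl replicate 2 (adjusted p = 0.0912), Chd8+/+ replicate 2 (0.0679) or Chd8+/+ replicate 3 (0.057). Trp53bp1 was higher by 0.45 ± 0.04 (adjusted p = 1.43e-08) and Trp73 by 2.99 ± 0.42 (2.98e-05). Atm (-0.09, 95% interval -0.21 to 0.03, adjusted p = 0.186) and Prkdc (0.03, -0.08 to 0.14, adjusted p = 0.667) were not called. Trp63 had 801 counts in the 3 Ctrl libraries together and 10 in the 3 Chd8+/+ libraries. The ratio was 70.3 after scaling (95% counting interval 38.0 to 147, which leaves out the spread between libraries). Trp63 passed the filter on low counts through its E10.5 libraries only, so that it is left out of the calls given here. Of the 14 proliferation markers, 11 were lower and none higher at E12.5, and all 6 early neuron markers were higher. Stage, dissection, pooling, the control genotype and the sequencing runs changed together here and cannot be told apart.

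**Figure D4:**
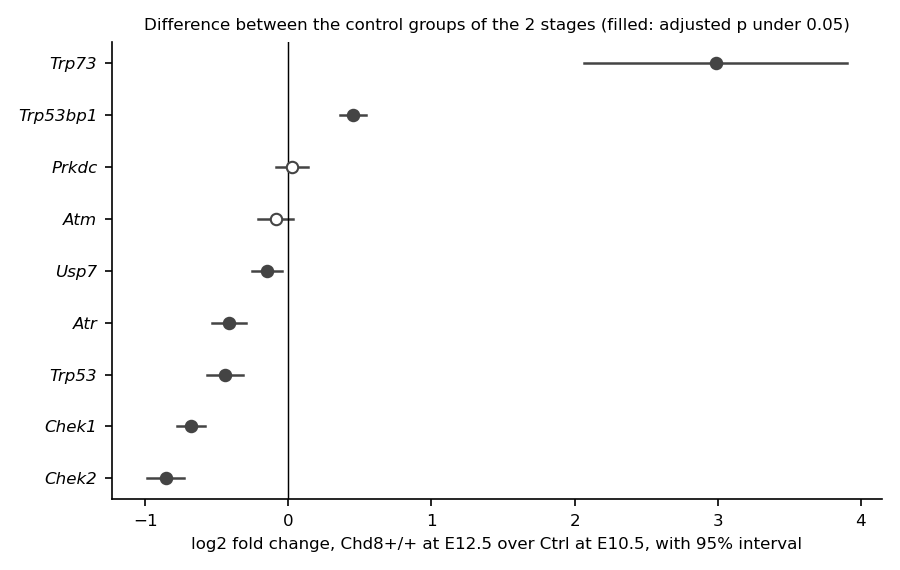
Log2 fold change of 9 genes (all but Trp63) between Chd8+/+ cortices at E12.5 and Ctrl vesicles at E10.5 (horizontal axis) with 95% intervals, with filled points for an adjusted p under 0.05. Trp73 and Trp53bp1 are higher at E12.5, Chek2, Chek1, Trp53, Atr and Usp7 are lower, and the intervals of Prkdc and Atm include 0.

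The levels placed in 1 order over the 6 groups, with all libraries scaled together, showed the same division. For Trp53, Atr, Chek1 and Chek2 both E10.5 groups stood above all E12.5 groups, and no E10.5 library overlapped with an E12.5 library at that step. Trp63 had this order too, but it passed the filter through its E10.5 libraries only and is not counted here. For Trp53bp1 and Trp73 both E10.5 groups stood below. Within E12.5 the neighbours in the order overlapped, except Chd8neo/neo and Chd8+/- for Trp53, Chd8+/+ and Chd8neo/- for Atm, Chd8neo/- and Chd8+/- for Chek2 and Chd8+/- and Chd8neo/neo for Trp53bp1. Within E10.5 Chek1 alone separated the 2 groups.

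The genes around the members were followed with lists written from general knowledge, with earlier results of these data known. In cKO vesicles 23 of 30 p53 target genes were called higher and 2 lower (5.75% of all genes higher and 5.70% lower), with a median log2 fold change of 0.81. Phlda3, an inhibitor of AKT signalling, was higher by 2.47 ± 0.10 (SE, adjusted p = 6.28e-07, edgeR), the stress sensor Sesn2 by 2.105 ± 0.11 (8.47e-06) and the nuclease Aen by 1.03 ± 0.06 (8.47e-06). Of 19 genes that control the stability or activity of p53, 3 were called higher and 2 lower. Mdm2, the ligase that degrades p53 and itself a p53 target, was higher by 0.47 ± 0.05, its partner Mdm4 was lower (-0.36 ± 0.06) and the ligase Rchy1 was higher by 0.28 ± 0.07. At E12.5, 3 of 29 p53 targets were called higher and 1 lower in Chd8neo/neo (3.71% of all genes higher and 4.45% lower). In Chd8neo/-, 6 of 29 were called higher and none lower (5.48% of all genes higher and 5.99% lower). The median log2 fold changes were 0.03 in Chd8neo/neo and 0.08 in Chd8neo/-. None of the 29 was called in Chd8+/- by edgeR.

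The genes around the kinases were counted by list in cKO vesicles, where 5.75% of all genes were called higher and 5.70% lower. In the ATM branch 1 of 12 was called higher in cKO, the mediator Mdc1 (0.46 ± 0.07, adjusted p = 0.00224, edgeR), and 2 lower, the acetyltransferase Kat5 (-0.42 ± 0.07) and the 53BP1 effector Rif1 (-0.29 ± 0.07). In the ATR branch 2 of 12 were lower, the fork protection gene Timeless (-0.37 ± 0.06) and Atrip, which encodes the partner of ATR (-0.62 ± 0.17, adjusted p = 0.0383). Of 8 genes of DNA-PK and end joining, the ligase cofactor Xrcc4 was higher (0.89 ± 0.11, adjusted p = 0.000829), and none was lower. Of 8 relatives of these kinases and their assembly factors and 7 targets of CHK1 and CHK2, none was called by edgeR. The list medians lay between -0.11 and 0.06, beside -0.0019 for all genes.

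**Figure D5:**
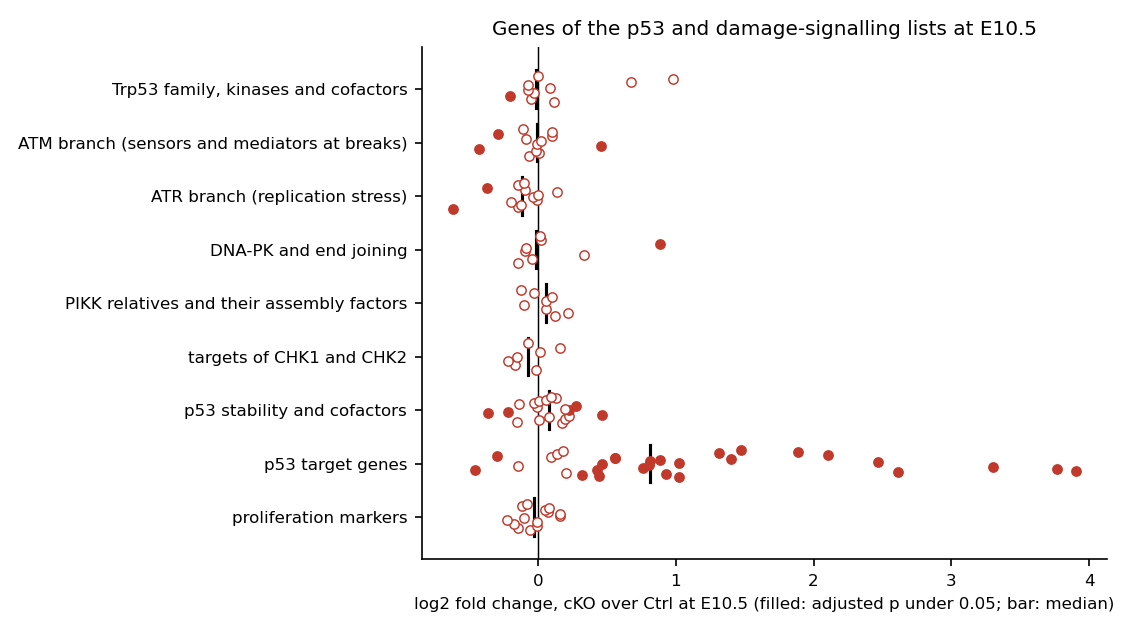
Log2 fold changes in cKO against Ctrl vesicles (horizontal axis) for the 10 genes (top row) and the lists of genes around them, with filled points for an edgeR adjusted p under 0.05 and a bar for the median of each list. The p53 target genes have a median of 0.81 and reach above 3, while 1 of the 10 genes, Chek1, is called, and Trp73 and Trp63 lie to the right and are not called.

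The same lists were counted in the hypomorphs at E12.5, where 3.71% of all genes were called higher and 4.45% lower in Chd8neo/neo, and 5.48% and 5.99% in Chd8neo/-. Differences between the stages in these counts were not tested. In Chd8neo/neo 4 of 12 ATM branch genes were higher and none lower, among them Mdc1 (0.56 ± 0.09), the histone H2afx (0.29 ± 0.06) and Kat5 (0.17 ± 0.04), and in Chd8neo/- 2 were higher, Mdc1 (0.54 ± 0.09) and H2afx (0.29 ± 0.06), and Rif1 was lower (-0.21 ± 0.04). In the ATR branch the fork protection gene Tipin was higher in both (0.25 ± 0.05 and 0.23 ± 0.05), and in Chd8neo/-, with 2 of 12 higher and 2 lower, Timeless (-0.32 ± 0.06) and the clamp subunit Hus1 (-0.18 ± 0.05) were lower. Of 8 end joining genes 3 were higher in each hypomorph and 1 was lower in Chd8neo/neo, with Xrcc4 at 0.66 ± 0.09 in Chd8neo/neo and 1.04 ± 0.09 in Chd8neo/-, and the Ku subunit Xrcc5 at 0.23 ± 0.05 and 0.25 ± 0.05. Prkdc, which encodes the kinase that Ku recruits, had log2 fold changes of 0.02 and 0.01. Of the 8 kinase relatives 2 were higher in each, the assembly factors Tti1 and Ruvbl1, and Smg1 was lower in Chd8neo/- (-0.23 ± 0.04). None of the 7 targets of CHK1 and CHK2 was called. Of the 19 regulators of p53, Wrap53, whose locus lies beside Trp53 on the other strand, was higher in both (0.20 ± 0.06 and 0.23 ± 0.06), and Otud5 was lower in Chd8neo/- (-0.19 ± 0.04). No gene of these lists was called in Chd8+/- cortices by edgeR. The 3 hypomorph and heterozygote comparisons share their control libraries.

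Over the 12 libraries at E12.5, the genes with the most similar pattern were sought among 14778 genes with a mean of at least 1 CPM, by Pearson's r of log2(CPM + 0.05). They are given as a description, since libraries share genotype and depth. Nearest to Chek1 were Ncapg (r = 0.948), Smc2 (0.935) and Bub1 (0.920), which encode 2 condensin subunits and a spindle checkpoint kinase. Nearest to Chek2 were Rfc5 (0.975), Rad54l (0.974) and Pask (0.969), the first a subunit of the clamp loader and the second a recombination factor. Nearest to Trp53bp1 were Hcfc2 (0.974), Zfp866 (0.972) and Rbfox2 (0.964), and nearest to Usp7 were Sall4 (0.968), 0610030E20Rik (0.944) and Baz1b (0.931). For Trp53 the highest values were lower, with Ints9 (0.896), Coq5 (0.888) and Gm14494 (0.827). Atm was nearest to Ddx46 (0.885), Luzp1 (0.873) and Taf1 (0.865), Atr to Upf3a (0.880), Pdk1 (0.874) and Pus7 (0.872), Prkdc to Wls, Hpse and Slc2a3 (0.904, 0.904 and 0.902), and Trp73 to Lockd (0.871), Trim47 (0.865) and Itga1 (0.861).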

How the data were processed

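RNA was sequenced from 18 libraries in 6 groups, each library in 2 runs. According to the methods and the labels' processing notes, the authors trimmed reads with Trim Galore 0.4.1, aligned them to GRCm38 with TopHat2 2.1.0 and counted them on Ensembl genes with featureCounts 1.5.0. The header of the E12.5 table shows counting without strand. The deposited values are raw counts per gene and run, without normalization, and the runs of a library were summed here. Of 46603 gene identifiers, 46005 matched a symbol.

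Tests were run with edgeR 4.0.16 in R 4.3.3 (filterByExpr, TMM scaling, robust quasi-likelihood test). 1 fit held the 12 libraries of E12.5 (18810 genes), another the 6 of E10.5 (18435 genes), and the last all 18 (19565 genes) for differences between stages. P-values were adjusted by Benjamini-Hochberg over all genes of a fit, and 95% intervals come from the fit's SE and degrees of freedom. CPM use TMM-scaled library sizes and RPKM also the exon length in the tables. Fits were tested on simulated data, where false calls took a larger share of the edgeR calls than the threshold of 0.05 allows in the E10.5 fit and not in the E12.5 fit. Counting intervals cover counting error only.

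The 10 genes and all lists were chosen with earlier results of these data known. The genes named are the 10, Chd8, up to 3 called genes per list and comparison with the smallest adjusted p, the first 3 detected markers of a list set beside a member, and the 3 genes most like each member. Alternatives were DESeq2 1.42.0, RLE and upper quartile scaling, no filter, the replicate number as a block, Y-linked counts as a covariate, either run by itself, a fit restricted to the groups compared, and leaving out every library in turn.

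Deviations of same-numbered Chd8neo/neo and Chd8+/- libraries from their group means had correlations of 0.109, 0.195 and 0.199, so that the numbers were taken to pair this comparison. This comes from the data, and neither labels nor methods name a source. According to the methods these genotypes came from different crosses, so that the numbers do not mark littermates. In no other comparison within a stage did every pair exceed 0.1. Sequences were taken from RefSeq (GRCm38.p6) promoters, which held 8 of the 10 genes, and from the study's primer list, matched to GENCODE M21. Figures were drawn with Python 3.11.15 and matplotlib 3.10.9.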

Additional observations from a re-analysis of the deposited data

Results flagged for a closer look

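In 3 instances the effect of Chd8 loss on a gene of the set differed between the stages by a test of the difference itself, in edgeR's fit of all 18 libraries. For Chek1 the log2 effect in cKO vesicles minus that in Chd8neo/- cortices was -0.27 (adjusted p = 0.0178), and minus that in Chd8neo/neo cortices -0.29 (adjusted p = 0.0111). All 3 cKO libraries lay below all 3 Ctrl libraries, in a comparison where 32.2% of all genes did not overlap. The 3 Chd8neo/- libraries lay above the 3 Chd8+/+ libraries, where 33.3% of all genes did not overlap. Chek1 was not called in that comparison (log2 fold change 0.07, adjusted p = 0.381, edgeR). For Chek2 the log2 effect in cKO vesicles minus that in Chd8neo/neo cortices was -0.30 (adjusted p = 0.0485), which over its alternatives ranged from 0.00859 to 0.141. The part of stage, allele, dissection, pooling of embryos and sequencing runs in these differences cannot be told apart.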

How the results depend on the processing

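The counts of called genes were small, so that 1 gene at the threshold moved them. Of 2054 single-gene values recomputed under the alternatives, 1945 kept their side of the threshold, 103 lost and 6 gained a call, and no called value changed sign. In 75 the sign of a value that was called under neither setting changed. All 60 group levels stayed within 1 SD when all 18 libraries were scaled together. In Chd8neo/neo against Chd8+/+ (2 called), RLE scaling, the Y-linked covariate and run 1 alone each gave 1, and run 2 alone and a fit of only these groups gave 0. In Chd8neo/- against Chd8+/+ (2 called), RLE scaling, no filter, the Y-linked covariate, run 1 alone and run 2 alone each gave 1. In Chd8neo/neo against Chd8+/- (1 called), DESeq2 gave 2, and the Y-linked covariate, either run alone and only these groups gave 0. In Chd8neo/- against Chd8+/- (1 called), upper quartile scaling, no filter, the covariate and either run alone gave 0, and only these groups gave 2. In cKO against Ctrl (1 called), run 1 alone gave 0. For cKO minus the Chd8neo/- effect (1 called), DESeq2 gave 2, and no filter and run 1 alone gave 0. For cKO minus the Chd8neo/neo effect (2 called), RLE scaling, no filter, the covariate and either run alone gave 1. With each library left out, the counts ranged from 0 to 2 in the 4 comparisons of hypomorphs with Chd8+/+ or Chd8+/-. They ranged from 0 to 1 in cKO against Ctrl, and from 1 to 2 in both differences of effects. Between stages they ranged from 7 to 8, with Trp63 counted, and they stayed at 0 in the other 2 comparisons. The cause of these changes was not tested.

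With the replicate number as a block, 1 gene was called in each hypomorph against Chd8+/+, 0 in each against Chd8+/-, and 1 in the difference between the cKO and Chd8neo/neo effects. Only Chd8neo/neo and Chd8+/- passed the pairing check, and elsewhere the libraries share only a number. In the stage comparison 7 genes, with Trp63 counted, were called with the block, without Usp7 (adjusted p = 0.37). The block changed no other count of called members. Over all genes, DESeq2 and the main edgeR test called 15 and 4 in Chd8+/- against Chd8+/+, 1700 and 1021 in Chd8neo/- against Chd8+/-, 27 and 3 between the hypomorphs, and 1786 and 994 in Chd8neo/neo against Chd8+/-, where the block gave 572.

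At the depth used, Trp63 at E12.5 was too low to test, and gene counts separate neither the promoters of Trp73 nor the exon 3 deletion of Chd8. Protein and phosphorylation of p53 and its kinases were not analysed here.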
